A study of Sus scrofa with 6 samples.

Results

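The genes described here carry iron into, through and out of the cells of the gut: CYBRD1, SLC11A2, SLC40A1, HEPH, TFRC, FTH1 and HMOX1. They were taken as a fixed list of 7 genes, matched by symbol to the pig Ensembl identifiers of the deposited table. Of these 7, 6 had an identifier in that table of 21911 genes, and all 6 were expressed highly enough to be tested. FTH1, which encodes the heavy subunit of ferritin, had no identifier under that symbol and was not analysed here.

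RNA was sequenced from 6 pig samples whose tissue the labels give as gut, 3 labelled SMP and 3 labelled Control. The design text of the series compares piglets that drank alkaline mineral water based on metasilicate with piglets of a control group. The labels do not spell out SMP, and they give no strain, age, sex, dose, duration or gut segment. They do not say that each sample came from its own piglet, so p-values measure the spread between these samples, which may be technical.

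Iron in the diet is mostly ferric and is reduced at the brush border of enterocytes before it can be taken up. The ferrous ion then enters together with protons through the transporter DMT1, is kept in ferritin, or leaves through the basolateral membrane by way of ferroportin, beside which a ferroxidase returns it to the ferric form. The duodenum and upper jejunum are the main sites of this uptake in mammals, and intestinal cells tune it to iron supply through iron regulatory proteins and, in the mouse, the hypoxia factor encoded by EPAS1. Iron held in heme is set free inside cells by heme oxygenase.

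The samples were not uniform within their groups, and this touches every result below. The library totals behind the values were 15927028 to 20712701, and the 6 iron genes held between 303 and 16472 reads in each library, so counting error was small beside the spread between libraries. Within SMP, replicates 1 and 2 differed by a chi-square of 12.7 per degree of freedom, computed on reads over all genes, whereas SMP replicate 3 differed from them by 79.4 and 66.4. Within Control, replicates 1 and 3 differed by 30.7, and Control replicate 2 differed from them by 103 and 92.1. Enterocyte genes such as VIL1 (427 to 792 FPKM over all libraries) and ANPEP (1240 to 2026 FPKM) were high throughout, as in intestinal epithelium. The Y-linked gene EIF1AY had 889, 1028 and 673 reads in SMP replicates 1, 2 and 3, against 5, 0 and 1 reads in Control replicates 1, 2 and 3, so sex and treatment cannot be told apart in these samples.

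Levels are given as FPKM, a read count scaled by gene length and library total, so that different genes can be set side by side. Each log2 difference subtracts the Control mean from the SMP mean of log2(FPKM + 1). The pseudocount of 1 makes the change of low genes look smaller than it is. Adjusted p-values are from limma, with Benjamini-Hochberg adjustment over 11471 tested genes.

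At the level of the 6 genes, 3 were lower in every SMP library than in any Control library (CYBRD1, SLC40A1 and HMOX1), 1 was higher in every SMP library (TFRC), and 2 had overlapping groups (SLC11A2 and HEPH). Among all tested genes, 11.5% lay wholly lower in SMP and 21.1% wholly higher. In the limma fit on all 6 libraries 0 of the 6 genes passed an adjusted p of 0.05, where 2.1% of all tested genes were called lower and 3.5% higher. At an unadjusted p under 0.05 there were 4 of 6, against 25.8% of all tested genes. The median log2 difference of the 6 was -1.01, beside 0.09 over all tested genes. Because these are pieces of bulk tissue, fewer cells of a type and less RNA per cell cannot be told apart in any of these differences.

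**Figure D1:**
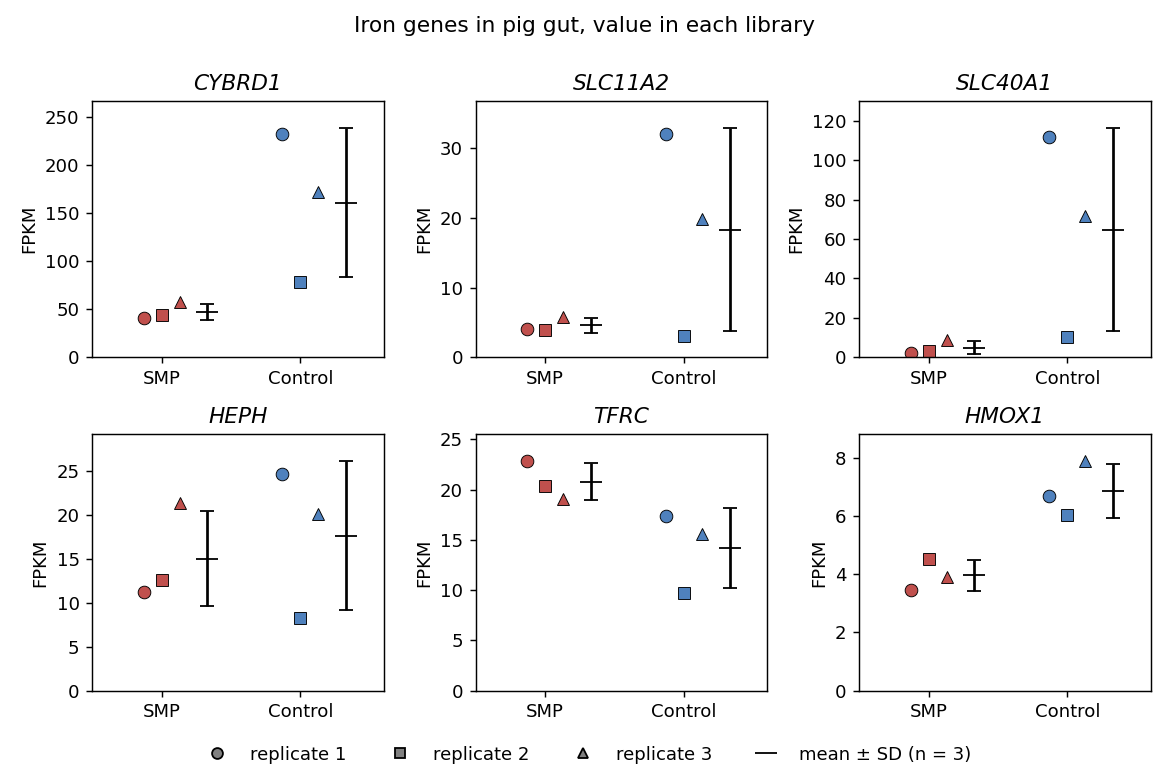
FPKM of the 6 iron genes (vertical axes, each starting at 0) in the 3 SMP libraries (red) and the 3 Control libraries (blue), with symbols for replicates 1 to 3 and the mean ± SD (n = 3) beside each group. CYBRD1, SLC40A1 and HMOX1 lie lower and TFRC lies higher in SMP without overlap, and Control replicate 2 (square) is the lowest Control library in all 6 panels.

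CYBRD1 (ENSSSCG00000025049) encodes duodenal cytochrome b, a brush border reductase that turns ferric into ferrous iron. It was at 41.0, 43.6 and 57.0 FPKM in SMP replicates 1, 2 and 3, against 232, 78.2 and 172 FPKM in Control replicates 1, 2 and 3. The groups did not overlap, and the lowest Control library lay nearer to the SMP libraries than to the other Control libraries. The means were 47.2 ± 8.58 FPKM in SMP and 161 ± 77.5 FPKM in Control (SD, n = 3 each), a ratio of 0.294. The log2 difference was -1.63 (SE 0.39, 95% interval -2.55 to -0.70), and its adjusted p of 0.0604 in limma missed the threshold.

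SLC11A2 (ENSSSCG00000034039) encodes DMT1, the carrier that brings ferrous iron into the enterocyte together with protons. It was at 4.10, 3.87 and 5.79 FPKM in SMP replicates 1, 2 and 3, against 32.1, 3.05 and 19.9 FPKM in Control replicates 1, 2 and 3. Control replicate 2 was the lowest of all 6 libraries, so the groups overlapped although the other 2 Control libraries were well above every SMP library. The log2 difference was -1.35 with a 95% interval from -3.05 to 0.35 (adjusted p = 0.290 in limma), which leaves the direction unsettled. The gene length behind its values was 15055 bases, against 4456 to 7234 bases for the other 5 genes, so its level relative to theirs depends on which transcripts the submitters' annotation joins into the gene.

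SLC40A1 (ENSSSCG00000027157) encodes ferroportin, the known exporter of iron from enterocytes and from macrophages that recycle red cells. It was at 2.28, 3.40 and 8.60 FPKM in SMP replicates 1, 2 and 3, against 112, 10.1 and 71.8 FPKM in Control replicates 1, 2 and 3. Every SMP library was below every Control library, but the gap between the highest SMP library and the lowest Control library was small beside the 11.1-fold range within Control. With means of 4.76 ± 3.37 FPKM in SMP and 64.8 ± 51.6 FPKM in Control (SD, n = 3 each), the SMP mean was 0.0735 times the Control mean. Its log2 difference of -3.12 (SE 0.86, 95% interval -5.17 to -1.08, adjusted p = 0.0820 in limma) was larger than that of the other 5 iron genes, and only 14 of the 11471 tested genes had a lower one.

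HEPH (ENSSSCG00000012363) encodes hephaestin, the copper-containing ferroxidase that works beside ferroportin. It was at 11.2, 12.6 and 21.3 FPKM in SMP replicates 1, 2 and 3, against 24.6, 8.22 and 20.1 FPKM in Control replicates 1, 2 and 3. The groups overlapped across most of their range. The log2 difference was -0.14 (95% interval -1.12 to 0.84, adjusted p = 0.861 in limma), and it turned positive when Control replicate 1 (0.15), Control replicate 3 (0.01) or SMP replicate 1 (0.03) was left out.

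Ferroportin and DMT1 transcripts stood in different proportions in SMP and Control. The FPKM ratio of SLC40A1 to SLC11A2, one of 6 ratios computed and singled out after its values were seen, was 0.557, 0.879 and 1.48 in SMP replicates 1, 2 and 3, against 3.51, 3.31 and 3.61 in Control replicates 1, 2 and 3. Control replicate 2, which was low in both genes, had nearly the same ratio as the other Control libraries. The ratio of SLC40A1 to HEPH was 0.204, 0.269 and 0.405 in SMP and 4.58, 1.23 and 3.58 in Control, again without overlap. The ratio of TFRC to SLC11A2 was 5.56, 5.27 and 3.3 in SMP and 0.541, 3.18 and 0.784 in Control, without overlap by a narrow margin. Of the 6 ratios computed, 3 overlapped between the groups, those of SLC40A1 to HMOX1, CYBRD1 to SLC11A2 and CYBRD1 to SLC40A1. The share of other gene pairs without overlap was not computed. These ratios are descriptions, and 3 libraries against 3 could not reach an exact two-sided permutation p below 0.10.

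TFRC (ENSSSCG00000011848) encodes the transferrin receptor, which takes up iron bound to transferrin from the blood side and is known for high levels in dividing cells and for rising when cells lack iron. It was at 22.8, 20.4 and 19.1 FPKM in SMP replicates 1, 2 and 3, against 17.4, 9.68 and 15.6 FPKM in Control replicates 1, 2 and 3. All SMP libraries were above all Control libraries, by a narrow margin. The log2 difference of 0.55 (SE 0.22, 95% interval 0.02 to 1.08) had an adjusted p of 0.179 in limma. Cell division genes differed in the same direction: 5 of 5 tested had a positive difference (median 0.74) and 1 was called higher, TOP2A (adjusted p = 0.0174 in limma). Their summed level was 68.5 to 116 FPKM in SMP and 39.7 to 48.8 FPKM in Control, and their part in the TFRC difference was not tested.

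HMOX1 (ENSSSCG00000039745) encodes heme oxygenase 1, the inducible enzyme that opens heme and releases its iron. It was at 3.45, 4.51 and 3.90 FPKM in SMP replicates 1, 2 and 3, against 6.71, 6.04 and 7.88 FPKM in Control replicates 1, 2 and 3. Its coefficient of variation was 13.4% in SMP and 13.6% in Control, and the groups did not overlap. In Control this was the smallest of the 6 genes, while in SMP that of TFRC was smaller (8.97%). The log2 difference was -0.67 (SE 0.15, 95% interval -1.02 to -0.31), and its adjusted p of 0.0527 in limma just missed the threshold. Of 8 tested target genes of NRF2, the activator that also acts on HMOX1, 4 had a positive and 4 a negative difference (median log2 difference 0.02). One of the positive ones, TXNRD1, lay wholly higher in SMP (log2 difference 0.49, adjusted p = 0.169 in limma). In limma 2 of the 8 were called lower and 0 higher, against 2.1% and 3.5% of all tested genes. The 2 called lower were NQO1, a quinone reductase, with a log2 difference of -1.17 (adjusted p = 0.0244), and OSGIN1, with -1.26 (adjusted p = 0.0133, both limma).

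In order of level, SMP gut had CYBRD1 highest (47.2 FPKM), then TFRC (20.8), HEPH (15.0), SLC40A1 (4.76), SLC11A2 (4.59) and HMOX1 (3.96). In Control the order was CYBRD1 (161 FPKM), SLC40A1 (64.8), SLC11A2 (18.3), HEPH (17.6), TFRC (14.2) and HMOX1 (6.87). CYBRD1 was the highest of the 6 in each library. In SMP the ranges of SLC40A1, SLC11A2 and HMOX1 overlapped, as did those of TFRC and HEPH. In Control every pair of neighbours in the order had overlapping ranges except TFRC and HMOX1, whose lowest and highest libraries were 9.68 and 7.88 FPKM.

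The number of iron genes that passed also depended on whether Control replicate 2 was kept. Control replicate 2 was the lowest Control library in 6 of 6 iron genes, a pattern that 46.5% of all tested genes shared, and SMP replicate 3 was the highest SMP library in 4 of 6, against 33.3% of all tested genes. Without Control replicate 2, CYBRD1, SLC11A2, SLC40A1 and HMOX1 passed as lower, with adjusted p-values of 0.00966, 0.0113, 0.0115 and 0.0415 in limma, when 4.6% of all genes were called lower. SLC11A2 then had a log2 difference of -2.25, and SLC40A1 one of -4.13. Without both Control replicate 2 and SMP replicate 3, HEPH also passed as lower (log2 difference -0.85, adjusted p = 0.0170 in limma), so that 5 of 6 were lower where 10.8% of all genes were. That fit compares 2 libraries with 2, and the libraries were chosen because they stood apart in these data. Leaving out any single library other than Control replicate 2, SMP replicate 3 among them, gave 0 of 6.

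The scale and the weights mattered as well. With median-ratio scaling CYBRD1 (adjusted p = 0.0468) and HMOX1 (0.0316) passed as lower in limma, beside 4.03% of all genes, and with voom on the reads behind the values the same genes passed (0.0471 and 0.0484), beside 2.35%. Quantile normalization passed HMOX1 (adjusted p = 0.0317 in limma), beside 2.84% lower. With array weights CYBRD1, SLC11A2, SLC40A1 and HMOX1 were called lower and TFRC higher (adjusted p = 0.0383 in limma), but 12.5% of all tested genes were then lower and 25.6% higher.

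**Figure D2:**
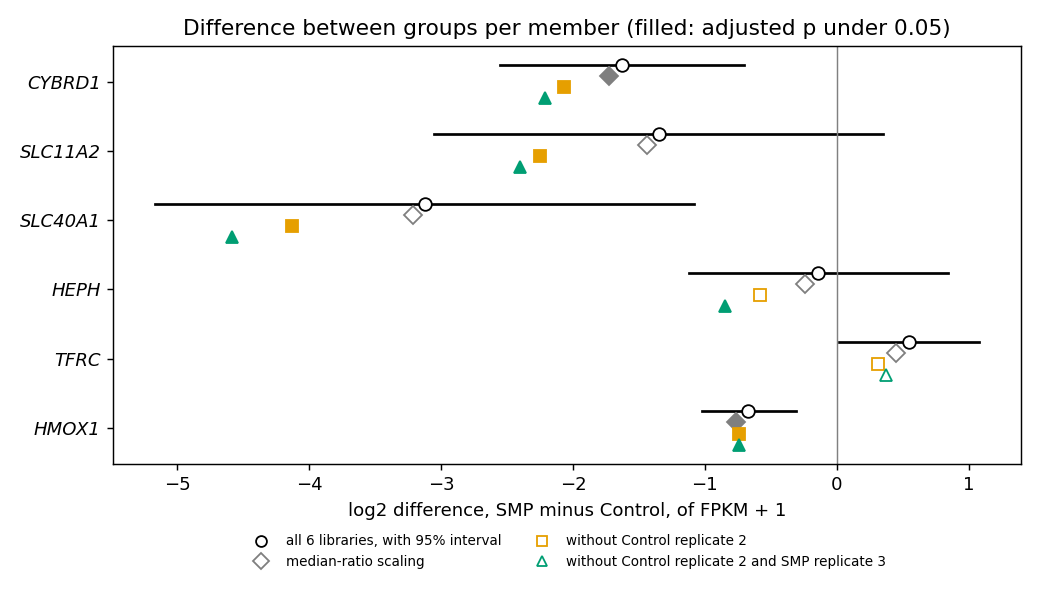
Log2 difference of FPKM + 1, SMP minus Control (horizontal axis), of the 6 iron genes in 4 fits, with the 95% interval of the fit on all 6 libraries; filled symbols passed an adjusted p of 0.05. With all libraries none is filled, while without Control replicate 2 the symbols of CYBRD1, SLC11A2, SLC40A1 and HMOX1 are filled and those of the uptake and export genes move to the left.

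Other cell types and gut regions varied between the same libraries. The enterocyte list had 6 tested genes with a median log2 difference of 0.06 and 1 called lower, APOA1. The list was split: FABP2 (log2 difference 1.27, adjusted p = 0.0612 in limma) and VIL1 (0.45, adjusted p = 0.202) lay wholly higher in SMP. With voom 2 of the 6 were called. Set against the mean log2 level of those 6 genes in the same library, CYBRD1 was at -4.16, -4.20 and -4.12 in SMP replicates 1, 2 and 3 and at -1.75, -3.08 and -2.35 in Control replicates 1, 2 and 3. On that scale its difference was -1.76, and that of SLC40A1 was -3.26. The subtraction moves every gene's difference by the same amount. Of 8 tested genes of the proximal small intestine, GIP, MLN, SCT and FOLH1B were lower (4 called, median -0.89), while GATA4, a transcription factor of that region, was at -0.02, RBP2 at -0.13 and SLC2A2 at -0.16. APOA4, on the same list, lay wholly higher in SMP without passing the test, with a log2 difference of 0.53. Of 6 large intestine genes, SLC26A3, CA4, OTOP2 and BEST4 were called higher and AQP8 lower (median 1.83). In limma 2.1% of all tested genes were called lower and 3.5% higher. With voom 3 of the 8 proximal and 5 of the 6 large intestine genes were called, beside 734 of all 11471 tested genes. The gut segment was not given for any sample, and its part in the iron gene differences was not tested.

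Macrophages, which also make ferroportin and heme oxygenase, were checked by 11 markers, of which 10 were tested. All 10 had a negative log2 difference (median -0.75) but 0 were called in limma or with voom. At an unadjusted p under 0.05 in limma there were 6, beside 25.8% of all tested genes. In SMP 6 of the 10 lay wholly lower and 0 wholly higher, beside 11.5% and 21.1% of all tested genes. The untested marker, MRC1, went the other way, with means of 1.06 FPKM in SMP and 0.747 FPKM in Control. Their summed level was 218 to 308 FPKM in SMP and 329 to 641 FPKM in Control, with Control replicate 1 the highest, as for SLC40A1. None of the markers was at 0 in all libraries. CD163, the hemoglobin scavenger receptor, had the smallest difference of the 10 tested (log2 difference -0.10). It was at 1.02, 1.23 and 1.1 FPKM in SMP and 1.5, 1.49 and 0.871 FPKM in Control. The part of macrophages in the differences of SLC40A1 and HMOX1 was not tested. Smooth muscle genes summed to 1605 to 2194 FPKM in SMP and to 999, 2795 and 167 FPKM in Control replicates 1, 2 and 3. Control replicate 2 had the most of them and Control replicate 3 the least. Among the Control libraries, all 6 iron genes were lowest in replicate 2. CYBRD1, SLC11A2, SLC40A1, HEPH and TFRC were highest in replicate 1, and HMOX1 was highest in replicate 3. The part of smooth muscle in the iron gene differences was not tested. Blood was low in all libraries: HBB was at 1.92, 3.99 and 17.0 FPKM in SMP and 17.6, 16.5 and 11.0 FPKM in Control, and the other 4 erythroid genes with an identifier were under the level needed for a test. Goblet cell genes (5 tested, median -0.14) and endothelial genes (5 tested, median 0.00) had 0 calls in limma and 0 with voom, with 3 and 0 at an unadjusted p under 0.05.

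The wider iron pathway was read from 7 lists by role, which together named 76 genes beside the 7 above. Of these, 65 had an identifier and 54 were tested, and 2 were called higher and 0 lower in limma, against 3.5% and 2.1% of all tested genes. The median log2 difference of the 54 was -0.07, beside 0.09 over all tested genes.

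The 2 genes that passed were FLVCR1 and FLVCR2, sister membrane transporters first described in connection with heme and later with choline. FLVCR1 (ENSSSCG00000015590) was at 11.5, 12.6 and 12.6 FPKM in SMP replicates 1, 2 and 3, against 3.67, 5.68 and 5.63 FPKM in Control replicates 1, 2 and 3. FLVCR2 (ENSSSCG00000021606) was at 16.8, 18.3 and 14.9 FPKM in SMP, against 4.67, 6.22 and 7.61 FPKM in Control. Neither gene overlapped between groups, and Control replicate 2 was not the lowest Control library of either. FLVCR1 was 2.46-fold higher in mean FPKM (adjusted p = 0.0217 in limma), and FLVCR2 was 2.70-fold higher, with a log2 difference of 1.32 (SE 0.19, adjusted p = 0.0183 in limma). Both calls were lost without Control replicate 3 (adjusted p = 0.0849 for FLVCR1 and 0.0518 for FLVCR2), without SMP replicate 1 (0.0990 and 0.0962) and without SMP replicate 2 (0.113 and 0.104). In those fits the log2 difference was 1.25, 1.20 and 1.14 for FLVCR1 and 1.46, 1.31 and 1.25 for FLVCR2, and the genes passing among all tested numbered 47, 53 and 43.

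Among the 18 tested heme genes, SLC46A1 had the largest difference. It encodes the proton-coupled folate transporter of the upper small intestine, which was first described as a heme carrier. It was at 8.86, 7.66 and 12.7 FPKM in SMP replicates 1, 2 and 3, against 88.8, 20.1 and 61.0 FPKM in Control replicates 1, 2 and 3, with the same order of the Control libraries as CYBRD1, SLC11A2, SLC40A1, HEPH and TFRC. Its log2 difference of -2.22 (SE 0.51) had an adjusted p of 0.0563 in limma, and it passed without Control replicate 2 (log2 difference -2.82, adjusted p = 0.00776). BLVRA, the biliverdin reductase that acts after heme oxygenase, was at 8.76, 8.98 and 7.44 FPKM in SMP and 12.3, 12.7 and 13.9 FPKM in Control, and its adjusted p was 0.0570 in limma. Of 18 tested heme genes, HMOX1 among them, 7 lay wholly lower in SMP, where 11.5% of all tested genes did, and 4 lay wholly higher, where 21.1% of all tested genes did.

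The uptake and export lists held little beside the genes above. Of 5 tested genes of brush border and metal uptake 0 were called in limma and 1 with voom. At an unadjusted p under 0.05 in limma there were 3, beside 25.8% of all tested genes. The zinc, manganese and iron carrier gene SLC39A14 was at 15.7 ± 0.954 FPKM in SMP and 27.5 ± 10.7 FPKM in Control, and its relative SLC39A8 at 2.95 ± 0.766 FPKM in SMP and 1.5 ± 0.472 FPKM in Control (SD, n = 3 each, adjusted p = 0.193 and 0.110 in limma). Of 5 tested genes of export and its control 0 were called in limma or with voom and 1 had an unadjusted p under 0.05. NEO1 (5.6 FPKM on average in SMP and 4.64 in Control) and BMP6 (0.958 FPKM in SMP and 1.45 in Control), both of hepcidin signalling in the liver, had adjusted p-values of 0.345 and 0.391. HAMP, which encodes hepcidin itself, reached no more than 0.183 FPKM in any library and was not tested.

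Of the 6 listed storage genes, FTH1, FTMT and PCBP1 had no identifier and were not measured here. FTL, the ferritin light chain gene, was by far the most abundant of the iron genes with an identifier. It was at 1812, 1822 and 1574 FPKM in SMP replicates 1, 2 and 3, against 2403, 2293 and 2656 FPKM in Control replicates 1, 2 and 3, without overlap. Its log2 difference was -0.50 (SE 0.14, adjusted p = 0.0902 in limma). Ferritin genes have many near-identical processed copies in mammalian genomes, so reads of FTL may have been divided among copies. NCOA4, the receptor that delivers ferritin for breakdown, was at 22.6, 22.9 and 33.1 FPKM in SMP and 123, 28.3 and 92.3 FPKM in Control, again with Control replicate 2 close to SMP (log2 difference -1.38, adjusted p = 0.153 in limma). Of 3 tested storage genes 0 were called in limma or with voom. At an unadjusted p under 0.05 in limma there were 2, beside 25.8% of all tested genes.

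In the transferrin list DNM2, a GTPase of endocytosis, averaged 15.9 FPKM in SMP and 10.7 FPKM in Control, and EXOC6, an exocyst subunit, averaged 1.96 FPKM in SMP and 2.24 FPKM in Control (adjusted p = 0.236 and 0.696 in limma). The list had 4 tested genes, of which 0 were called in limma or with voom. At an unadjusted p under 0.05 in limma there was 1, TFRC, beside 25.8% of all tested genes. Transferrin itself (TF) was at 0.0120 to 0.0295 FPKM in SMP and 0.0770 to 0.764 FPKM in Control, too low for a test.

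None of the 12 tested regulators passed in limma. ACO1, which encodes iron regulatory protein 1, was at 41.8, 43.5 and 56.9 FPKM in SMP replicates 1, 2 and 3, against 32.3, 18.6 and 27.9 FPKM in Control replicates 1, 2 and 3. The groups did not overlap, with a log2 difference of 0.85 (SE 0.24, adjusted p = 0.0828 in limma). BACH1, the heme-sensing repressor of HMOX1, averaged 6.66 ± 1.23 FPKM in SMP and 3.93 ± 1.04 FPKM in Control (SD, n = 3 each, adjusted p = 0.105 in limma). EPAS1 was at 9.61, 11.6 and 18.6 FPKM in SMP and 19.8, 13.1 and 15.6 FPKM in Control. With voom 0 regulators were called, and 4 of 12 had an unadjusted p under 0.05, beside 25.8% of all tested genes. In SMP 5 of the 12 lay wholly higher and 1 wholly lower, beside 21.1% and 11.5% of all tested genes. Targets of the hypoxia factors gave 0 calls among 6 in limma and 1 with voom, 2 at an unadjusted p under 0.05, and a median of -0.21.

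Mitochondrial iron genes, which build iron-sulfur clusters, had a median log2 difference of -0.07 over 13 tested genes. In limma and with voom 0 were called. Beside 25.8% of all tested genes, 2 had an unadjusted p under 0.05 in limma. One of them, ISCU, the scaffold of cluster assembly, averaged 94.8 ± 20.8 FPKM in SMP and 131 ± 7.22 FPKM in Control (SD, n = 3 each, adjusted p = 0.175 in limma).

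**Figure D3:**
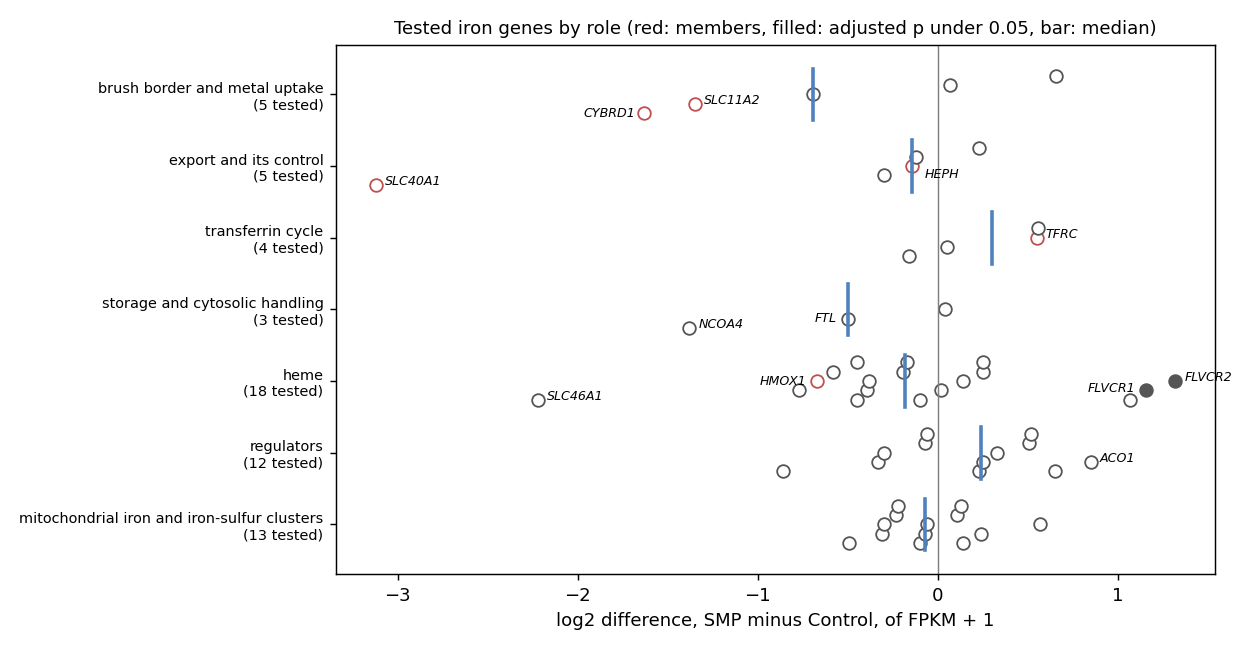
Log2 difference of FPKM + 1, SMP minus Control (horizontal axis), of each tested iron gene, in rows by role; red circles are the 6 genes of the main list, filled circles passed an adjusted p of 0.05 and blue bars are list medians. Only FLVCR1 and FLVCR2 are filled, and SLC40A1, SLC46A1, CYBRD1, NCOA4 and SLC11A2 lie farthest to the left.

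CYBRD1, SLC11A2, SLC40A1, HEPH and TFRC all had the Control order replicate 1, then 3, then 2, which 32.5% of all tested genes shared. Likeness of profiles was measured as the root mean square difference of log2(FPKM + 1), centred on each gene's mean over the 6 libraries, among the 9974 tested genes with a symbol. Nearest to CYBRD1 were the nuclear receptor gene PPARG (0.13), the motilin gene MLN (0.16) and TMEM65 (0.16). Nearest to SLC11A2 were C17orf78 (0.24), the hyaluronan synthase gene HAS2 (0.26) and the pyrophosphate transporter gene ANKH (0.28). SLC40A1 had no close neighbour, its nearest being the calcium channel gene TRPV6 (0.51), LCN15 (0.51) and OTOP3 (0.59). Of these 9 neighbours MLN, TRPV6 and LCN15 passed the test as lower (adjusted p = 0.0459, 0.0253 and 0.0244 in limma). Among all tested genes 2.1% were called lower. The 9 were picked for profiles like those of genes with a negative difference, so their direction and calls add no separate support.

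The remaining 3 genes had closer neighbours, in part because their profiles were flatter. HEPH lay nearest to TMC5 (0.05), AADAC (0.06) and ABCB6 (0.08), of which ABCB6 is a transporter of porphyrins in the heme list. TFRC lay nearest to the chloride and proton exchanger gene CLCN3 (0.06), TTC14 (0.08) and PPARGC1B (0.08). Close to HMOX1 lay the methionine sulfoxide reductase gene MSRB2 (0.06) and RHOD (0.07), of which RHOD was called lower (log2 difference -0.75, adjusted p = 0.0424 in limma). These likenesses are descriptions: all genes were measured in the same 6 libraries, whose differences in composition they share. A neighbour has the direction of its gene by this choice, so the call of RHOD adds no separate support either.

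**Figure D4:**
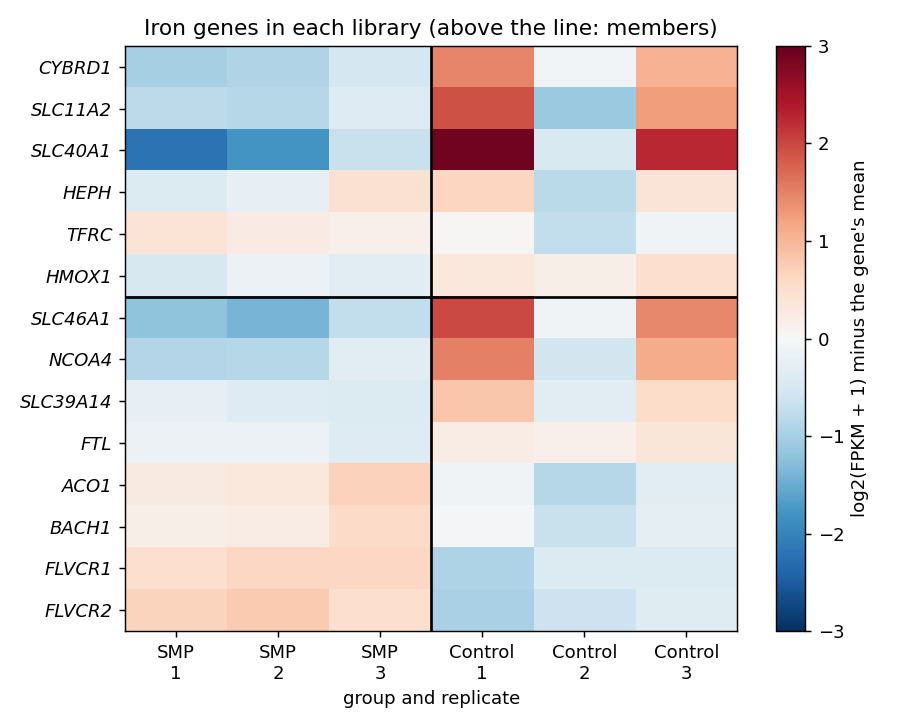
Level of the 6 main iron genes (above the line) and 8 further iron genes in each library (columns, SMP left and Control right), coloured by log2(FPKM + 1) minus the gene's mean over the 6 libraries. SLC40A1 spans the widest range, SLC46A1 and NCOA4 share the pattern of CYBRD1 with Control replicate 2 nearer to SMP, and FLVCR1 and FLVCR2 are higher in all SMP libraries.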

How the data were processed

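The authors deposited FPKM values for 21911 pig Ensembl genes in 6 libraries, and nothing else was used. A NEBNext Ultra kit was used for the libraries, per the labels' protocols; the strand setting, the annotation and how multi-mapping reads were counted are not stated there. Per the submitters' processing notes the tools included DESeq2 1.16.1, HISAT2 2.0.5 and StringTie, whose roles the notes do not state. The notes name a mouse build, which the pig identifiers contradict, so no coordinates are printed. Symbols came from a table of gene names that matched 14153 identifiers.

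The deposited FPKM values are whole numbers divided by 1 length per gene and 1 total per library, and these were recovered for all 21911 genes, within 5e-09 of a whole number in relative terms. They are called reads here, though they may be fragments.

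Genes averaging 1 FPKM or more over the 6 libraries (11471) were analysed as log2(FPKM + 1) with limma 3.58.1 in R 4.3.3 (treatment only, empirical Bayes trend, two-sided, Benjamini-Hochberg at 0.05). Same-numbered samples showed no common pairing, which 3 libraries per group cannot exclude, so the main fit used no block. In simulated data with raised genes only and no library standing apart, the fit called 90 of 100 genes changed 2-fold. It called 100 of 100 changed 4-fold and also 10 unchanged genes. The simulation cannot show how the fit behaves with libraries that stand apart, as some do here. The genes, lists and tests were chosen with earlier results of these data known. Named are the main genes, other iron genes that passed, the 2 with the smallest p of each list, and 3 nearest profiles per main gene, with 2 of these genes not reported here; those named otherwise (markers, GATA4, CD163, HAMP, TF, EPAS1, and genes in ratios) were chosen after their values were seen. Alternatives were other scalings, filters, pseudocounts (0.1 and 0.5), array weights, a robust fit, the block, voom, and libraries left out.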

Additional observations from a re-analysis of the deposited data

How the results depend on the processing

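Of 102 values of the 6 iron genes under 17 alternatives, 80 kept their direction and their side of the threshold, 19 kept their direction and passed it, and 3 turned sign. The 3 were those of HEPH, whose log2 difference ran from -0.58 to 0.15 when 1 library was left out. Iron genes passing numbered 0 with all libraries, 1 with quantile normalization, 2 with median-ratio scaling, 2 with voom, 5 with array weights, 5 without both Control replicate 2 and SMP replicate 3, and 0 to 4 when 1 library was left out. Wider iron genes passing numbered 2, against 4, 6, 3, 22, 16 and 0 to 8 in the same settings. All genes passing numbered 642, against 258 with no filter, 4369 with array weights, 236 with the replicate block, 3043 without both libraries, and 43 (without SMP replicate 2) to 1065 (without SMP replicate 3) when 1 was left out. The cause was not tested. Median-ratio scaling split the calls into 344 higher and 462 lower, against 401 higher and 241 lower on the deposited scale, and set the median log2 difference of all genes to 0.00, against 0.09. Same-numbered samples had deviations correlated by -0.306, 0.320 and -0.0374. These values show no common pairing, but with 3 libraries per group they cannot exclude one. With a block for replicate number SLC46A1 passed (adjusted p = 0.0319 in limma) and the iron gene calls stayed at 0. Each group had 3 libraries, and the 6 iron genes had at least 303 reads in each library.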
